A study of Mus musculus with 12 samples.

Results

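RNA-seq of differentiating mouse embryonic stem (ES) cells was compared between the 6 libraries numbered replicate 2 and the 6 numbered replicate 1. These 12 libraries are all 12 of the series and form 6 pairs, each of 1 line and 1 treatment. The cells are J1 XY male ES cells in which the endogenous *Xist* gene is driven by a doxycycline-inducible TetO promoter (Xist-TetOP). The FL line carries full-length *Xist*, ΔA lacks the A repeat, and ΔB+C, made from FL by CRISPR/Cas9 editing, lacks the B and C repeats. All were analysed at day 2 of differentiation in serum medium without LIF, the cytokine that sustains self-renewal, with DOX at 1.5 µg/ml or without it (noDOX). Each genotype is represented by 1 line, and FL and ΔA had earlier been adapted to growth without feeder cells. Libraries were made from 1 µg of RNA, except ΔB+C DOX replicate 2, for which 100 ng and a low-input method were used. The study calls the libraries biological duplicates. The labels give a replicate number and do not state what libraries with the same number shared, so culture, differentiation, RNA extraction, library preparation and sequencing cannot be told apart as sources of the difference.

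On removal of LIF, ES cells leave naive pluripotency: transcription factors of the naive network such as *Esrrb*, *Klf4* and *Zfp42* (Rex1) are switched off while *Pou5f1* and *Sox2* stay on. Cells pass through a formative state marked by *Fgf5*, *Otx2* and the de novo DNA methyltransferases, and then take up germ layer programmes such as *T* (Brachyury) in mesendoderm or *Sox1* in neuroectoderm.

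Library totals were 34311940 to 41240470 counts in replicate 1 and 31337490 to 38204978 in replicate 2, and 13191 of 24627 genes passed the filter of 1 CPM (counts scaled to a common library total) or more in 6 libraries or more. All libraries had the core pluripotency genes of ES cells at high levels, with *Pou5f1* at 1150 to 1810 CPM. *Xist* stood at 2.48 to 8.27 CPM in the noDOX libraries and 570 to 1790 CPM in the DOX libraries. Library totals were scaled by TMM factors, and differences are log2 of replicate 2 over replicate 1 with the standard error of the fit over 6 pairs. Tests are edgeR's quasi-likelihood test with Benjamini-Hochberg adjustment over all 13191 genes, and higher, lower, rose and fell are used for an adjusted p under 0.05. Since the RNA is from bulk cultures, fewer cells of a type and less RNA per cell cannot be told apart.

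Replicate 2 differed from replicate 1 over a large share of the transcriptome, mostly by small amounts. Of the tested genes 2996 (22.7%) were higher and 3106 (23.5%) lower in replicate 2, with a median absolute log2 difference of 0.299 among them. A difference of 2-fold or more was reached by 219 of these, 81 higher and 138 lower, and 4976 of the 6102 moved the same way in all 6 pairs. The range of the 6 replicate 2 libraries lay wholly above that of replicate 1 for 370 genes (2.8%) and wholly below it for 348 (2.64%). Counts of called members in the lists below are to be read beside the 22.7% and 23.5% of all genes. Replicate number took 20.7% of the sum of squares of log2 CPM over autosomal genes, against 69.0% for line and treatment. The median absolute log2 difference within a pair was 0.163 to 0.266, which overlaps the 0.0935 to 0.239 between DOX and noDOX libraries of 1 line and replicate number. Across autosomal genes the differences of 2 pairs correlated at 0.719 to 0.768 within a line and at 0.388 to 0.705 between lines. These correlations are over genes, which are not independent replicates. The noDOX and DOX pairs of a line moved together, and each genotype has 1 line. Tests over 6 pairs count each pair as independent, so their p-values may be too small.

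**Figure D1:**
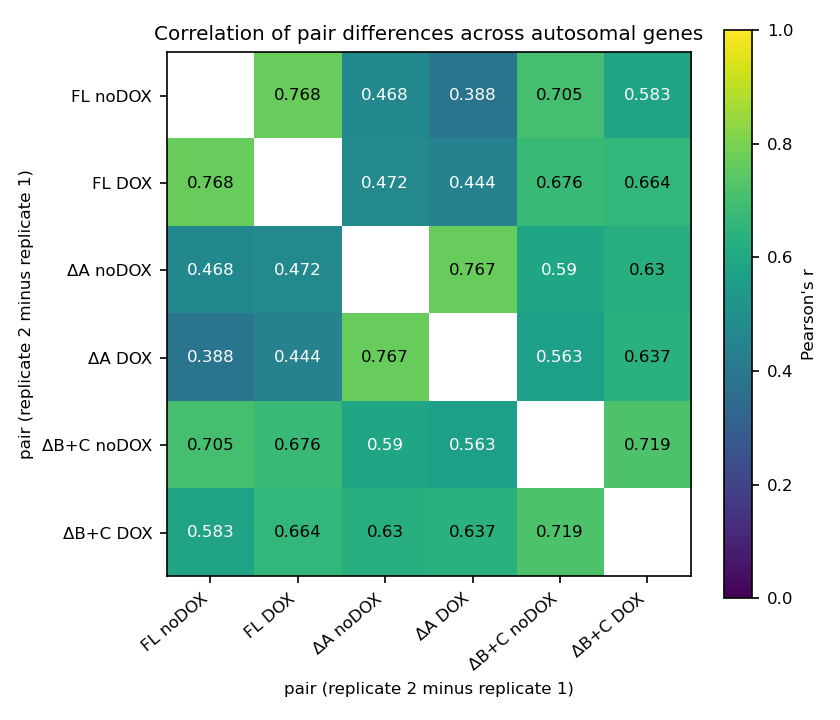
Pearson's r across autosomal genes between the replicate 2 minus replicate 1 log2 differences of each pair of libraries, with line and treatment on both axes and r written in each cell. The 3 cells that join noDOX and DOX of the same line hold the values from 0.719 to 0.768, and the cells between lines run from 0.388 to 0.705.

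GC content moved with the difference. Across 13059 genes with a transcript (99.0% of those tested), Spearman's rho of the log2 difference with GC content was 0.343 and with transcript length -0.124. By pair, rho with GC was 0.162 in FL noDOX, 0.169 in FL DOX, 0.284 in ΔA noDOX, 0.327 in ΔA DOX, 0.22 in ΔB+C noDOX and 0.474 in ΔB+C DOX, the pair with the 100 ng library. With genes split into 4 equal bins of GC, in the lowest bin (29.6 to 45.1%), 6.95% were higher and 40.5% lower. In the highest bin (54.8 to 74.5%), 36.7% were higher and 11.9% lower. After a correction for GC and length, chosen after seeing the data, 2906 genes were higher and 2940 lower, and 4655 of the calls were shared in the same direction with 0 opposite. The part of GC content in the results below was not tested beyond this correction and the comparison without the 100 ng library.

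**Figure D2:**
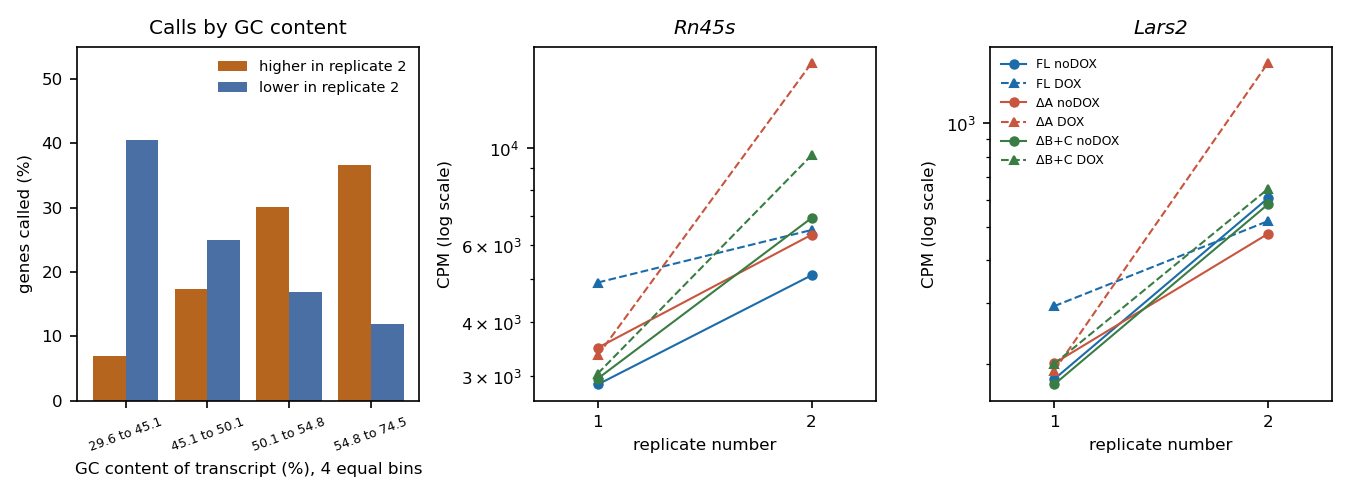
Left, the percentage of genes called higher or lower in replicate 2 in 4 equal bins of transcript GC content; middle and right, CPM on a log axis of *Rn45s* (ribosomal RNA) and *Lars2* in each library, with lines joining the libraries of a pair. Calls go from 6.95% higher and 40.5% lower at the lowest GC to 36.7% and 11.9% at the highest, and ΔA DOX replicate 2 had the top level of both genes, 15700 and 1500 CPM.

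The largest rises were in *Inhbb*, *Khdc3*, *Mymx* and *Cpne5*. *Inhbb* encodes the activin and inhibin beta B subunit and lies at chr1:119415463-119422248 in GRCm38 (mm10, RefSeq). Its lowest, median and highest levels were 0.927, 2.27 and 4.11 CPM in replicate 1 and 3.31, 8.41 and 38.4 CPM in replicate 2. The ranges over all lines overlapped, and the difference was 2.44 ± 0.27 (edgeR adjusted p = 0.000502). The rise was 1.58 in FL, 3.19 in ΔA and 2.17 in ΔB+C on the log2 scale. *Khdc3* (chr9:73101381-73106631), a maternal-effect gene also active in ES cells, stood at 1.27, 2.4 and 5.42 CPM in replicate 1 and 4.39, 10.3 and 16 CPM in replicate 2. Its difference was 1.85 ± 0.13 (edgeR adjusted p = 8.47e-06). *Cpne5*, a copine that binds phospholipids in the presence of calcium, stood at 3.44, 6.82 and 9.2 CPM in replicate 1 and 10.6, 22.2 and 42.6 CPM in replicate 2. Here every replicate 2 library was above every replicate 1 library, with a difference of 1.84 ± 0.16 (edgeR adjusted p = 0.000111).

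The other large rises were in genes of varied function. *Hsd11b2*, which inactivates glucocorticoids, stood at 3.12, 5.39 and 6.93 CPM in replicate 1 and 8.22, 15.5 and 24 CPM in replicate 2. Its ranges did not overlap, and it rose by 1.63 ± 0.09 (edgeR adjusted p = 1.47e-06). *Mymx*, the muscle fusion factor myomixer, rose by 1.85 ± 0.33 (edgeR adjusted p = 0.00414). *Tcl1*, an AKT co-activator of the naive state, rose by 1.58 ± 0.22 (edgeR adjusted p = 0.000757). *Calcoco2*, an autophagy receptor, rose by 1.49 ± 0.13 (edgeR adjusted p = 0.000108). *Krt42*, a keratin, rose by 1.45 ± 0.16 (edgeR adjusted p = 0.000133). *Lars2*, the mitochondrial leucyl-tRNA synthetase, is described with ribosomal RNA below.

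The largest falls, chosen by the same rule as the rises, were in epithelial, matrix and growth factor genes, and they were steepest in FL. *Csf1* (chr3:107741048-107760469), which encodes a macrophage growth factor, went, from replicate 1 to replicate 2, from 31.9 to 2.16 CPM in FL noDOX, 23.2 to 1.44 CPM in FL DOX, 4.06 to 1.51 CPM in ΔA noDOX, 2.47 to 1.12 CPM in ΔA DOX, 16.6 to 4.01 CPM in ΔB+C noDOX and 15.3 to 4.17 CPM in ΔB+C DOX. Replicate 1 of FL and ΔB+C held the high levels, and ΔA was low in both replicates. The difference was -2.51 ± 0.46 (edgeR adjusted p = 0.00632), with -3.94 in FL, -1.30 in ΔA and -1.96 in ΔB+C. *Thbs1* (thrombospondin 1, a matrix protein) changed by -2.11 ± 0.40 (edgeR adjusted p = 0.00801) with differences of -3.33 in FL, -1.13 in ΔA and -1.86 in ΔB+C.

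Keratins of simple epithelia were among the falls. *Krt8* (chr15:101996711-102004342) stood at 82.1, 349 and 516 CPM in replicate 1 and 40.5, 60.8 and 128 CPM in replicate 2. The ranges overlapped through ΔA replicate 1, and the difference was -1.95 ± 0.38 (edgeR adjusted p = 0.00845). *Krt19* differed by -2.10 ± 0.29 (edgeR adjusted p = 0.00219), and *Krt18*, the partner of *Krt8* in the filament, by -1.63 ± 0.27 (edgeR adjusted p = 0.0041). *Prss23*, a serine protease, stood at 6.57, 23.3 and 33 CPM in replicate 1 and 2.44, 4.12 and 6.38 CPM in replicate 2 and its ranges did not overlap. It differed by -2.16 ± 0.31 (edgeR adjusted p = 0.00208). Of the secreted signals, *Wnt4* differed by -2.08 ± 0.43 (edgeR adjusted p = 0.00996) and *Tgfb2* by -2.05 ± 0.16 (edgeR adjusted p = 3.83e-05). *S100a6*, a calcium-binding protein, differed by -1.91 ± 0.30 (edgeR adjusted p = 0.00284), and *Synpo2l*, an actin-associated protein, by -2.01 ± 0.54 (edgeR adjusted p = 0.0257, 0.0576 to 0.0678 without the FL noDOX, ΔB+C noDOX or ΔB+C DOX replicate 2 library).

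**Figure D3:**
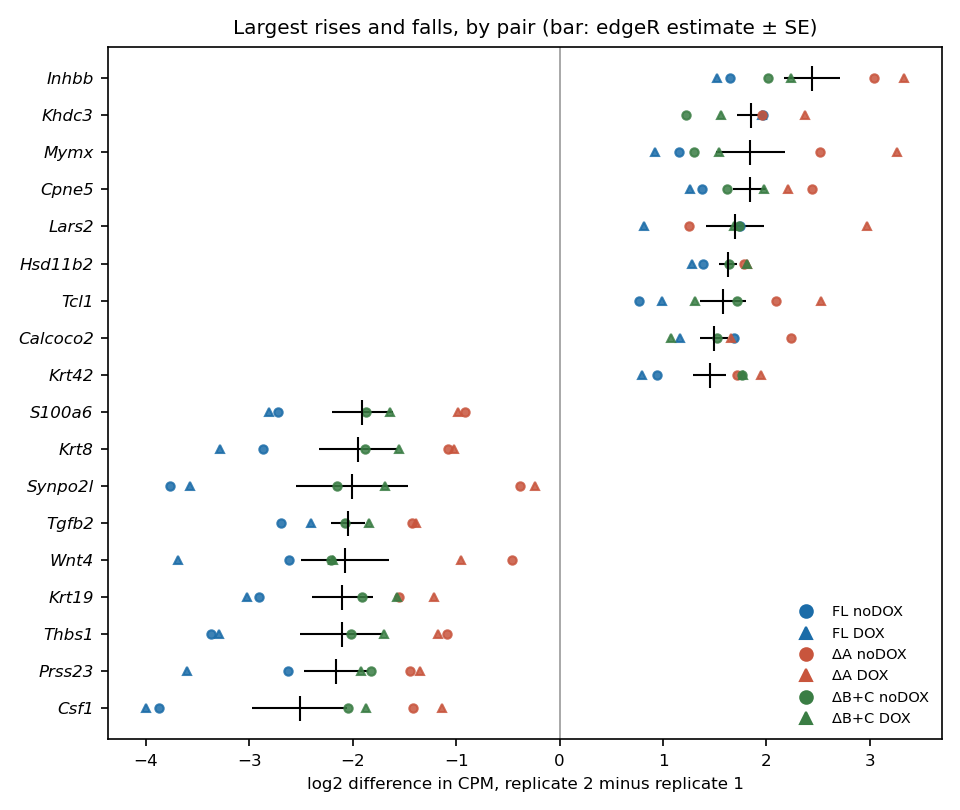
Log2 difference in CPM, replicate 2 minus replicate 1, for the genes named here from the largest rises and falls with a mean of at least 5 CPM and the same direction in all 6 pairs. Points are pairs, coloured by line and shaped by treatment, and bars are edgeR's estimate ± SE; the falls are steepest in FL (*Csf1*, -3.94) and smallest in ΔA (-1.30).

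More naive pluripotency genes rose than fell in replicate 2, with the highest line median in ΔA. Of 18 members, all tested, 9 rose and 0 fell, against 22.7% and 23.5% of all genes, and the list's median difference was 0.551 against -0.00145 over all tested genes. Without the 100 ng library 7 rose and 0 fell, with a median of 0.59, where 19.2% and 19.8% of all genes were called. Fewer members rose in the fit with noDOX and DOX summed per line and replicate number (3, where 1970 of all genes rose), in the noDOX or the DOX libraries alone (4 each), without ΔB+C (4) and with no replicate block (5), and 0 fell in each. Of all genes 1332 rose in noDOX libraries alone, 1546 in DOX libraries alone, 1957 without ΔB+C and 757 with no replicate block. The median was 0.0141 in FL, 1.35 in ΔA and 0.552 in ΔB+C, and 15 of 18 members had a difference that varied by line (line interaction), against 5.72% of all genes. The summed level of the list went from 741 to 796 CPM in FL noDOX and from 1110 to 1130 in FL DOX. It went from 674 to 1320 CPM in ΔA noDOX and from 644 to 1460 in ΔA DOX. In ΔB+C it went from 600 to 801 CPM without DOX and from 848 to 1320 with it.

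Single members differed in size between the lines. *Gbx2* (chr1:89927962-89931176), a homeobox gene downstream of LIF, went from 11.3 to 16 CPM in FL noDOX, 25.2 to 50 CPM in FL DOX, 27.5 to 101 CPM in ΔA noDOX, 29.2 to 115 CPM in ΔA DOX, 9.77 to 26.2 CPM in ΔB+C noDOX and 14.8 to 46.4 CPM in ΔB+C DOX. All 6 pairs moved up, by 1.43 ± 0.21 (edgeR adjusted p = 0.00231), with 0.78 in FL, 1.93 in ΔA and 1.54 in ΔB+C. *Esrrb*, a nuclear receptor of the naive network, went from 21.8 to 26.4 CPM in FL noDOX, 51.3 to 60.3 CPM in FL DOX, 33.7 to 109 CPM in ΔA noDOX, 24.6 to 113 CPM in ΔA DOX, 18.1 to 32.1 CPM in ΔB+C noDOX and 66 to 118 CPM in ΔB+C DOX. Its difference was 1.94 in ΔA and 0.25 in FL on the log2 scale, with a joint difference of 1.01 ± 0.30 (edgeR adjusted p = 0.0365, 0.0717 to 0.0905 without the ΔA noDOX, ΔB+C noDOX or ΔB+C DOX replicate 2 library, 0.051 after the GC and length correction). *Zfp42* stood at 68.7, 87.6 and 190 CPM in replicate 1 and 140, 197 and 330 CPM in replicate 2 and rose by 0.96 ± 0.17 (edgeR adjusted p = 0.00542). *Nr0b1* (Dax1) rose by 1.22 ± 0.28 (edgeR adjusted p = 0.014). *Prdm14*, which represses FGF signalling, stood at 0.625, 0.885 and 1.76 CPM in replicate 1 and 1.89, 2.09 and 4.5 CPM in replicate 2, without overlap, and rose by 1.34 ± 0.38 (edgeR adjusted p = 0.0224, 0.0507 to 0.0526 without the FL noDOX or ΔB+C noDOX replicate 2 library). *Klf4* had 0.62 ± 0.31 (edgeR adjusted p = 0.149), with -0.015 in FL, 1.65 in ΔA and 0.22 in ΔB+C, and *Klf5* had -0.28 ± 0.27 (edgeR adjusted p = 0.442), with -0.96 in FL, 0.59 in ΔA and -0.46 in ΔB+C. Neither passed the joint test, and both passed that of the line interaction, with adjusted p = 0.000912 and 6.56e-06 in edgeR.

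More genes of the core network rose than fell, by smaller amounts. Of 12 core pluripotency genes 6 rose (50.0%) and 1 fell (8.33%), against 22.7% and 23.5% of all genes, with a median of 0.165. Line medians were 0.0796 in FL, 0.147 in ΔA and 0.263 in ΔB+C, and 1 member had a line interaction. Without the 100 ng library the counts were again 6 and 1. *Sox2* (chr3:34649995-34652461) stood at 282, 403 and 494 CPM in replicate 1 and 400, 640 and 713 CPM in replicate 2 and rose by 0.59 ± 0.066 (edgeR adjusted p = 0.00012). *Nanog* rose by 0.33 ± 0.07 (edgeR adjusted p = 0.00345), *Dppa2* by 0.41 ± 0.048 (edgeR adjusted p = 0.000117) and *Tdgf1* (Cripto), a Nodal co-receptor, by 0.31 ± 0.061 (edgeR adjusted p = 0.00204). *Pou5f1* (Oct4) stood at 1150, 1350 and 1720 CPM in replicate 1 and 1470, 1570 and 1810 CPM in replicate 2. Its difference of 0.19 ± 0.045 (edgeR adjusted p = 0.006, 0.0864 after the GC and length correction) was small, and the ranges overlapped.

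Formative and primed genes moved both ways. Of 18 members 3 rose (16.7%) and 4 fell (22.2%), near the 22.7% and 23.5% of all genes, with a median of -0.043. *Dnmt3a*, a de novo DNA methyltransferase, rose by 0.56 ± 0.08 (edgeR adjusted p = 0.000605) and the POU factor *Pou3f1* (Oct6) by 0.30 ± 0.057 (edgeR adjusted p = 0.00159). *Cldn6*, a tight junction protein, stood at 123, 156 and 172 CPM in replicate 1 and 79.6, 97.4 and 116 CPM in replicate 2. These ranges did not overlap, and it changed by -0.64 ± 0.052 (edgeR adjusted p = 1.8e-05). *Tead2*, a Hippo pathway factor, changed by -0.33 ± 0.045 (edgeR adjusted p = 0.00025) and *Otx2* by -0.16 ± 0.042 (edgeR adjusted p = 0.00831). *Fgf5* had a difference of -0.16 ± 0.20 (edgeR adjusted p = 0.547), with 0.36 in FL, -0.75 in ΔA and -0.031 in ΔB+C and a line interaction at adjusted p = 0.0094 in edgeR. *Dnmt3b* had 0.076 ± 0.1 (edgeR adjusted p = 0.561), with 0.36 in FL, -0.29 in ΔA and 0.16 in ΔB+C and adjusted p = 0.000859 for the interaction. Of 11 LIF and STAT3 targets 1 rose and 1 fell, and 7 had a line interaction, with medians of -0.214 in FL, 0.303 in ΔA and 0.0439 in ΔB+C. The one that fell was *Junb*, which changed by -0.98 ± 0.16 (edgeR adjusted p = 0.00307) in 6 of 6 pairs.

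**Figure D4:**
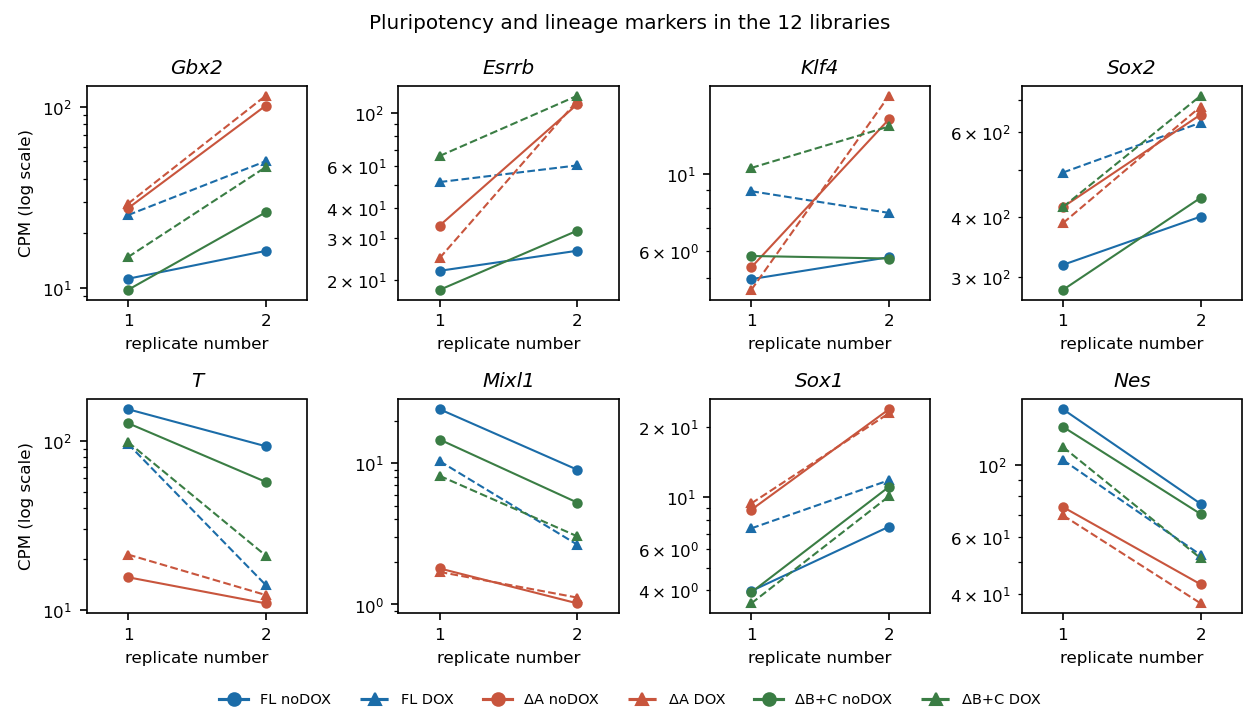
CPM on a log axis of 4 pluripotency genes (top) and 4 lineage genes (bottom) in the 12 libraries, with lines joining the replicate 1 and replicate 2 libraries of a pair. *Gbx2*, *Esrrb*, *Sox2* and *Sox1* go up and *T*, *Mixl1* and *Nes* go down in all 6 pairs, while *Klf4* goes up in 4 of 6.

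More mesendoderm genes fell than rose in replicate 2. Of 16 tested members (22 in the files) 3 rose and 8 fell (50.0%, against 23.5% of all genes), with a median of -0.481. Without the 100 ng library 3 rose and 5 fell, with a median of -0.461, without ΔB+C noDOX replicate 2 the counts were also 3 and 5, and without the ΔB+C line 3 and 3. Of all 13191 genes 2609, 2644 and 2041 fell in these fits, in that order. *T* (chr17:8434423-8442496) went from 154 to 93.1 CPM in FL noDOX, 96.3 to 14 CPM in FL DOX, 15.6 to 10.9 CPM in ΔA noDOX, 21.2 to 12.2 CPM in ΔA DOX, 128 to 57.3 CPM in ΔB+C noDOX and 98.5 to 20.9 CPM in ΔB+C DOX. ΔA was low in both replicates, and the DOX libraries of FL and ΔB+C had the steepest drops. The difference was -1.38 ± 0.36 (edgeR adjusted p = 0.0241, 0.055 to 0.0663 without the ΔB+C noDOX or ΔB+C DOX replicate 2 library). *Mixl1*, a homeobox gene of the primitive streak, stood at 1.7, 9.24 and 24.1 CPM in replicate 1 and 1.02, 2.84 and 8.98 CPM in replicate 2 and changed by -1.39 ± 0.14 (edgeR adjusted p = 6.89e-05). *Sp5*, a Wnt-responsive factor, changed by -1.48 ± 0.26 (edgeR adjusted p = 0.00525), and *Fgf8* by -1.09 ± 0.33 (edgeR adjusted p = 0.0371, 0.0511 to 0.104 without the ΔA DOX, ΔB+C noDOX or ΔB+C DOX replicate 2 library). Against this direction *Lefty1*, a Nodal inhibitor that is also high in ES cells, stood at 25, 37.8 and 62.1 CPM in replicate 1 and 44.6, 63.6 and 115 CPM in replicate 2 and rose by 0.74 ± 0.057 (edgeR adjusted p = 1.46e-05).

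Neuroectoderm genes moved both ways. Of 13 tested members (18 in the files) 6 rose (46.2%) and 3 fell (23.1%), against 22.7% and 23.5% of all genes, with a median of 0.195. The counts were the same without the 100 ng library. *Sox1* stood at 3.52, 5.67 and 9.42 CPM in replicate 1 and 7.49, 11.5 and 23.9 CPM in replicate 2 and rose by 1.22 ± 0.11 (edgeR adjusted p = 3.83e-05) in 6 of 6 pairs, with 0.79 in FL, 1.36 in ΔA and 1.51 in ΔB+C. The Notch ligand *Dll1* rose by 0.88 ± 0.16 (edgeR adjusted p = 0.00276). *Nes*, the intermediate filament nestin, stood at 69.9, 109 and 149 CPM in replicate 1 and 37.4, 52.1 and 75.9 CPM in replicate 2. It changed by -0.95 ± 0.047 (edgeR adjusted p = 1.07e-06) in 6 of 6 pairs, with -0.97 in FL, -0.85 in ΔA and -1.02 in ΔB+C. *Sox1* and *Nes*, both markers of neural progenitors, therefore had opposite signs in each line.

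More trophectoderm genes fell than rose, with the lowest line medians in FL and ΔB+C. Of 13 tested trophectoderm genes 2 rose and 5 fell (38.5%, against 23.5% of all genes), with a median of -0.515 and line medians of -0.904, -0.0721 and -0.571 in FL, ΔA and ΔB+C. The ΔA noDOX pair had a median of 0.189. In the fit without FL 3 rose and 3 fell, in DOX libraries alone 2 rose and 2 fell, in noDOX libraries alone 0 rose and 2 fell, and without ΔA DOX replicate 2 2 rose and 8 fell. Of all 13191 genes 2868, 1723, 1542 and 2686 fell in these fits, in that order. Those that fell included *Krt8*, *Krt18*, *Hand1* and *Krt7*, and the keratins are made by many epithelia. *Hand1* differed by -0.88 ± 0.24 (edgeR adjusted p = 0.0138) and *Krt7* by -0.72 ± 0.10 (edgeR adjusted p = 0.00034), while *Cdx2*, the defining factor of the trophectoderm, had -0.84 ± 0.29 (edgeR adjusted p = 0.0523). The summed list went from 784 to 170 and from 816 to 142 CPM in FL noDOX and DOX, from 186 to 129 and from 170 to 126 in ΔA, and from 532 to 206 and from 628 to 273 in ΔB+C. Replicate 2 of FL, at 170 and 142 CPM, lay within the 126 to 186 CPM of ΔA, and replicate 2 of ΔB+C stayed above it. The sum is mostly *Krt8* and *Krt18*, with median levels of 349 and 152 CPM in replicate 1 beside 580 for the list. In replicate 2 these medians were 60.8 and 40.4 CPM beside 156, so the sum largely restates the keratin falls.

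Of 13 tested fibroblast and matrix genes 0 rose and 7 fell (53.8%, against 23.5% of all genes), with a median of -0.336. Without the 100 ng library 4 fell, without FL DOX replicate 2 or ΔB+C noDOX replicate 2 3 fell, and with no replicate block 3 fell. In noDOX libraries alone 2 fell, in DOX libraries alone 1, and with noDOX and DOX summed per line and replicate number 1. Calls over all genes dropped too: 1542, 1723 and 2097 of 13191 fell in these fits, in that order, against 3106 with all libraries. With no replicate block 766 of all genes fell. Line medians were -0.657 in FL, -0.381 in ΔA and -0.363 in ΔB+C. The summed list went down in FL (1550 to 733 and 1710 to 954 CPM) and ΔB+C (1380 to 858 and 1730 to 1220 CPM) and was not lower in ΔA (710 to 770 and 642 to 763 CPM). *Tagln*, an actin-binding protein of smooth muscle and fibroblasts, stood at 169, 329 and 364 CPM in replicate 1 and 81.7, 106 and 153 CPM in replicate 2. Its ranges did not overlap, and it differed by -1.29 ± 0.21 (edgeR adjusted p = 0.00381). *Col1a1* differed by -1.35 ± 0.42 (edgeR adjusted p = 0.0425, 0.0636 to 0.0928 without the FL noDOX, FL DOX, ΔA noDOX, ΔA DOX or ΔB+C noDOX replicate 2 library), *Acta2* by -1.24 ± 0.36 (edgeR adjusted p = 0.0324, 0.054 to 0.0668 without the FL DOX, ΔB+C noDOX or ΔB+C DOX replicate 2 library) and *Col5a1* by -1.03 ± 0.27 (edgeR adjusted p = 0.0242, 0.0593 to 0.0677 without the FL noDOX, ΔB+C noDOX or ΔB+C DOX replicate 2 library). These genes are also made by feeder fibroblasts, and their part in the other results was not tested. Of the 18 genes of the list in the files, the 13 tested had means of 0.918 to 595 CPM, and the 5 others reached at most 0.0794 (*Lum*) to 2.13 CPM (*Col3a1*) in any library.

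Of 19 tested genes of primitive and visceral endoderm 1 rose (5.26%) and 6 fell (31.6%), against 22.7% and 23.5% of all genes, with a median of -0.13. The line medians were -0.0798 in FL, -0.119 in ΔA and -0.469 in ΔB+C, with 0.089 in the FL DOX and 0.0384 in the ΔA DOX pair. Without the 100 ng library 1 rose and 5 fell, with a median of -0.0507. *Plat*, tissue plasminogen activator, differed by -0.89 ± 0.13 (edgeR adjusted p = 0.000338). The basement membrane collagens *Col4a2* and *Col4a1* differed by -0.57 ± 0.10 (edgeR adjusted p = 0.00257) and -0.44 ± 0.13 (edgeR adjusted p = 0.0307, 0.0607 to 0.0806 without the FL noDOX, ΔA DOX or ΔB+C noDOX replicate 2 library). *Foxa2* rose by 0.83 ± 0.28 (edgeR adjusted p = 0.0341, 0.058 to 0.103 without the FL noDOX, FL DOX, ΔA noDOX or ΔA DOX replicate 2 library, 0.0842 after the GC and length correction), in 5 of 6 pairs, and the endoderm factor *Gata6* had 0.017 ± 0.20 (edgeR adjusted p = 0.952). Of 5 tested endothelial and blood genes 0 rose and 1 fell, *Runx1*, by -0.74 ± 0.17 (edgeR adjusted p = 0.00436). Of 10 tested *Hox* genes (39 in the files) 2 rose and 0 fell, *Hoxb1* by 0.49 ± 0.16 (edgeR adjusted p = 0.0261, 0.0597 to 0.0768 without the FL noDOX, ΔA noDOX or ΔB+C noDOX replicate 2 library, 0.0719 after the GC and length correction) and *Hoxb2* by 0.63 ± 0.20 (edgeR adjusted p = 0.0243, 0.0592 to 0.0746 without the FL noDOX, ΔA noDOX or ΔB+C DOX replicate 2 library, 0.0537 after the GC and length correction), and after the GC and length correction 0 did.

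Of 12 tested germline genes 5 rose (41.7%, against 22.7% of all genes) and 0 fell, with a median of 0.139 and line medians of 0.392 in FL, -0.118 in ΔA and 0.201 in ΔB+C. The summed list went from 116 to 137 and from 128 to 171 CPM in FL noDOX and DOX, from 134 to 134 and from 133 to 128 in ΔA, and from 103 to 124 and from 110 to 139 in ΔB+C. *Hormad1*, a meiotic chromosome axis protein, rose by 0.71 ± 0.10 (edgeR adjusted p = 0.000309), *Dazl*, a germ cell RNA-binding protein, by 0.65 ± 0.14 (edgeR adjusted p = 0.00291), *Stk31* by 0.59 ± 0.085 (edgeR adjusted p = 0.000338) and the piRNA pathway gene *Piwil2* by 0.59 ± 0.089 (edgeR adjusted p = 0.000493). The 13 genes in the files that mark two-cell-like cells, a rare state in ES cultures that recalls the early embryo, did not pass the filter on low levels and were not tested. Their summed level was 1.05 to 5.12 CPM in replicate 1 and 5.37 to 12.8 CPM in replicate 2, without overlap. Summed over 6 libraries each, *Zscan4c* had 92 counts in replicate 1 and 377 in replicate 2, *Zscan4d* had 43 and 213, and *Tmem92* had 16 and 91, each higher in 6 of 6 pairs. *Zscan4a*, *Zscan4b* and *Zscan4f* also had more counts in replicate 2, as did *Usp17le* (56 and 116) and *Usp17lc* (19 and 43). The rest of the list moved little or had few counts: *Sp110* had 122 and 131, *Tcstv3* 13 and 16, *Tcstv1* 2 and 5, *Usp17ld* 13 and 13 and *Zfp352* 3 and 2. The near-identical *Zscan4* copies share reads, so the split among them is uncertain.

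More Wnt targets and immediate early genes fell than rose. Of 13 tested Wnt targets 1 rose (7.69%) and 6 fell (46.2%), against 22.7% and 23.5% of all genes, with a median of -0.186 and line medians of -0.176 in FL, -0.0403 in ΔA and -0.294 in ΔB+C. In the fit without the ΔB+C line 0 rose and 2 fell, where 1957 of all 13191 genes rose and 2041 fell. *Rnf43*, a membrane ubiquitin ligase that restrains Wnt signalling, differed by -1.29 ± 0.19 (edgeR adjusted p = 0.000338), and *Notum*, a secreted Wnt inhibitor, rose by 1.09 ± 0.29 (edgeR adjusted p = 0.0233, 0.0763 without the ΔB+C DOX replicate 2 library). Of 12 genes of FGF-ERK feedback 2 rose (16.7%) and 5 fell (41.7%), with a median of -0.0697 and 0.0145 in ΔA. In DOX libraries alone 0 rose and 1 fell, where 1546 of all 13191 genes rose and 1723 fell. Those that fell included *Phlda1* (-1.26 ± 0.24 (edgeR adjusted p = 0.00643)) and the ERK phosphatase *Dusp4* (-0.68 ± 0.14 (edgeR adjusted p = 0.00672)). Of 11 BMP and Id genes 2 rose (18.2%) and 1 fell (9.09%), with line medians of -0.2 in FL, 0.16 in ΔA and 0.0189 in ΔB+C. A line interaction was called for 5 of the 11, against 5.72% of all genes. Their summed level went from 605 to 559 and from 540 to 509 CPM in FL noDOX and DOX. It went from 661 to 891 and from 664 to 921 in ΔA, and from 630 to 689 and from 476 to 565 in ΔB+C. *Dusp9*, an ERK phosphatase induced by BMP, rose by 0.66 ± 0.14 (edgeR adjusted p = 0.00783), *Smad6*, a BMP inhibitor, by 0.43 ± 0.12 (edgeR adjusted p = 0.0128), and *Id4* differed by -0.30 ± 0.084 (edgeR adjusted p = 0.0129, 0.104 after the GC and length correction). Of 19 tested immediate early genes 3 rose (15.8%) and 13 fell (68.4%), with a median of -0.452. The counts were 3 and 12 without the 100 ng library, and 0 and 14 after the GC and length correction. *Cyr61*, a matricellular protein, stood at 98.1, 220 and 267 CPM in replicate 1 and 49.8, 58.5 and 143 CPM in replicate 2 and differed by -1.35 ± 0.18 (edgeR adjusted p = 0.00171). *Atf3* differed by -0.83 ± 0.10 (edgeR adjusted p = 0.000157) and *Ier3* by -0.83 ± 0.12 (edgeR adjusted p = 0.000406), both in 6 of 6 pairs.

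**Figure D5:**
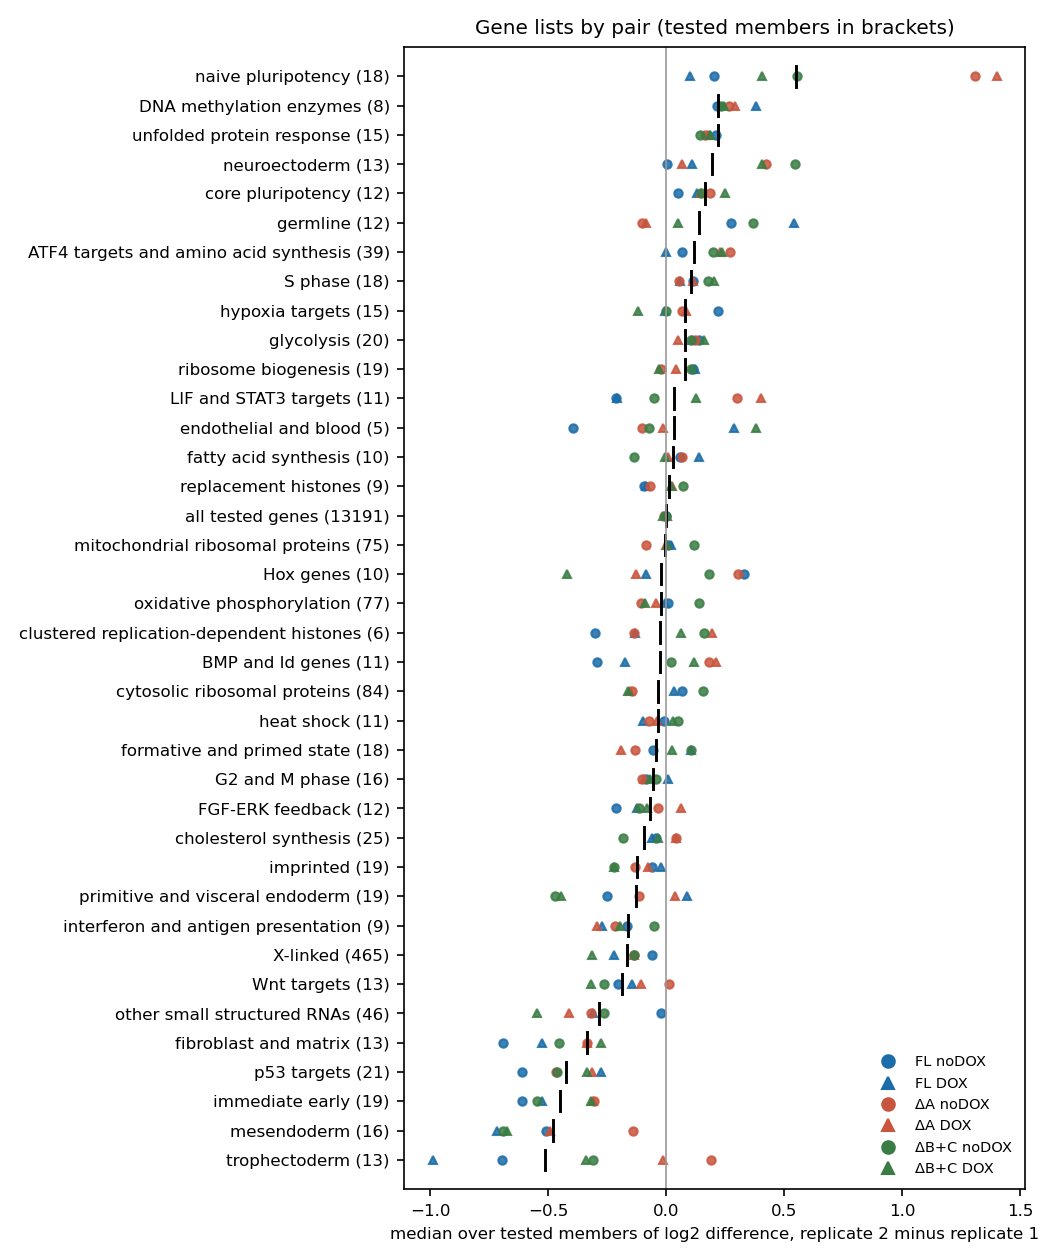
Median log2 difference, replicate 2 minus replicate 1, over the tested members of each list with at least 5 of them (number in brackets). Points are the 6 pairs and black bars the median of edgeR's joint differences, which run from 0.551 for naive pluripotency to -0.515 for trophectoderm; naive pluripotency has the widest spread between lines, with ΔA apart from FL.

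Energy metabolism moved little as a whole. Of 20 tested glycolysis genes 9 rose (45%) and 3 fell (15%), against 22.7% and 23.5% of all genes, with a median of 0.0797. The counts were 8 and 3 without the 100 ng library, and 7 and 4 with a median of 0.0101 after the GC and length correction. The summed list was higher in replicate 2 of 6 of 6 pairs. *Hk1* (hexokinase) rose by 0.51 ± 0.08 (edgeR adjusted p = 0.000543), *Pfkp* (phosphofructokinase) by 0.48 ± 0.07 (edgeR adjusted p = 0.000426) and *Aldoa* (aldolase) by 0.31 ± 0.043 (edgeR adjusted p = 0.000297). *Pfkfb3*, which makes an activator of phosphofructokinase, stood at 29.4, 41.9 and 47.3 CPM in replicate 1 and 17.7, 23.6 and 26.6 CPM in replicate 2, without overlap, and changed by -0.76 ± 0.13 (edgeR adjusted p = 0.00229). Of 77 tested genes of oxidative phosphorylation 18 rose and 18 fell (23.4% each, near the shares of all genes), with a median of -0.0244. The complex I subunits *Ndufa5* and *Ndufs4* changed by -0.57 ± 0.069 (edgeR adjusted p = 0.00017) and -0.45 ± 0.063 (edgeR adjusted p = 0.000302), and cytochrome c, *Cycs*, by -0.44 ± 0.056 (edgeR adjusted p = 0.000173). Of 15 tested hypoxia targets 3 rose and 4 fell. *Bhlhe40*, a repressor also tied to the clock, differed by -1.48 ± 0.36 (edgeR adjusted p = 0.0179, 0.0555 without the ΔB+C DOX replicate 2 library), with -2.47 in FL, -0.37 in ΔA and -1.51 in ΔB+C, while the oxygen sensor *Egln3* rose by 0.31 ± 0.06 (edgeR adjusted p = 0.00189).

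Lipid synthesis genes moved both ways. Of 25 cholesterol synthesis genes 4 rose (16%) and 7 fell (28%), near the 22.7% and 23.5% of all genes, with a median of -0.0945. *Mvd*, of the mevalonate pathway, stood at 34.2, 39.7 and 41.2 CPM in replicate 1 and 49.3, 53.3 and 67.4 CPM in replicate 2, without overlap, and rose by 0.50 ± 0.056 (edgeR adjusted p = 9.57e-05), and *Fdps* rose by 0.28 ± 0.039 (edgeR adjusted p = 0.000297). The sterol demethylation enzymes *Cyp51* and *Msmo1* changed by -0.39 ± 0.04 (edgeR adjusted p = 6.25e-05) and -0.37 ± 0.047 (edgeR adjusted p = 0.00017). Of 10 fatty acid genes 3 rose (30%) and 4 fell (40%). The desaturases *Scd2* and *Scd1* changed by -0.42 ± 0.062 (edgeR adjusted p = 0.000422) and -0.31 ± 0.064 (edgeR adjusted p = 0.00223), while *Fasn* (fatty acid synthase) rose by 0.25 ± 0.042 (edgeR adjusted p = 0.000702) and *Fads2* by 0.30 ± 0.042 (edgeR adjusted p = 0.000264).

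Stress programmes moved in different directions: more genes of the unfolded protein response and more ATF4 targets rose than fell, and more p53 targets fell than rose. XBP1 and ATF6 activate endoplasmic reticulum chaperones through the ER stress response element, ATF4 activates amino acid synthesis and transport, and p53 activates cell cycle arrest and death genes. Promoters of members that hold the motif of their factor are shown because the lists are named for those factors. They are RefSeq sequences of GRCm38, from 250 bases before to 50 bases after the outermost start given for the gene, 5′ to 3′ on the gene's strand, with the motif in capitals. The first pair holds the ER stress response element, CCAAT and CCACG with 9 bases between them, the second the ATF4 core, TGATGNAA, and the third the p53 decamer, each searched on both strands.
Hspa5, chr2:34771840-34772139, plus strand: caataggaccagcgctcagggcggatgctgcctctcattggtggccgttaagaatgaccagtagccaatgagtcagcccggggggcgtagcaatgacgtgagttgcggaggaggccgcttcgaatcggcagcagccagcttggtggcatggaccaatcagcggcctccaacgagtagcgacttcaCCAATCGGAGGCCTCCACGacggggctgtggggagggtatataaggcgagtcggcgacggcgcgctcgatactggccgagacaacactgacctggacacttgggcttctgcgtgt
Creld2, chr15:88819396-88819695, plus strand: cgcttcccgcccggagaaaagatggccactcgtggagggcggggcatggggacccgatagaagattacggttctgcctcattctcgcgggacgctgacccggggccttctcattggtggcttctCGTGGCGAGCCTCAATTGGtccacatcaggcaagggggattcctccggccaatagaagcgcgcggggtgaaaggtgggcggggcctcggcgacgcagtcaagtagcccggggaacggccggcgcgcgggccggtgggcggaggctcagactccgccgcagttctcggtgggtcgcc
Trib3, chr2:152344011-152344310, minus strand: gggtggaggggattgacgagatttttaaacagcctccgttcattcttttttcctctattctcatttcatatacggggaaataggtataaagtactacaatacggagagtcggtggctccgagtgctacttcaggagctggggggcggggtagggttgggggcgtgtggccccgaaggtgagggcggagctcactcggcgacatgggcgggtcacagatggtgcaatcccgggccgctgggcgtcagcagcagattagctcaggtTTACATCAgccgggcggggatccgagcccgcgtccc
Nupr1, chr7:126625421-126625720, minus strand: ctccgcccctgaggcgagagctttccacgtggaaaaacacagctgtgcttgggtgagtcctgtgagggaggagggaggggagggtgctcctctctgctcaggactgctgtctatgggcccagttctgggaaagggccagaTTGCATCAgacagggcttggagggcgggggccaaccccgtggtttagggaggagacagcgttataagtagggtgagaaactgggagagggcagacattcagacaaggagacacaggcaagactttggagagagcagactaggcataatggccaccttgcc
Ccng1, chr11:40755237-40755536, minus strand: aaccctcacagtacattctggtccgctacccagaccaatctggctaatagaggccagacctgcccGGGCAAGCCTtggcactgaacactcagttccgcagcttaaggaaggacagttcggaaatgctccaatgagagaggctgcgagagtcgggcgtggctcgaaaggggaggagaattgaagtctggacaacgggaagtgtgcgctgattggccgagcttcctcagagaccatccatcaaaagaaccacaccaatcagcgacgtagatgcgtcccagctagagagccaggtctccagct
Mdm2, chr10:117710709-117711008, minus strand: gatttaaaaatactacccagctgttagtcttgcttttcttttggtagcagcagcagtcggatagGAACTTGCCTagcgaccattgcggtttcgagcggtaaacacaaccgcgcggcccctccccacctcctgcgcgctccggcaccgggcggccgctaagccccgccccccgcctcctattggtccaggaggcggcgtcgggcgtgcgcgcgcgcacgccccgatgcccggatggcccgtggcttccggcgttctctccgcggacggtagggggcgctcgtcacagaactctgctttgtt

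A promoter was given for 10282 of the 13191 tested genes. The ER stress response element was present in 19 of them (0.185%) and in 6 of 13 unfolded protein response genes, of which 4 rose and 2 were not called. The ATF4 core was present in 212 (2.06%) and in 10 of 32 ATF4 targets, of which 5 rose, 1 fell and 4 were not called. The p53 decamer was present in 687 (6.68%) and in 6 of 16 p53 targets, of which 4 fell and 2 were not called. A match is a description of these letters and not a binding site.

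Of 15 unfolded protein response genes 10 rose (66.7%) and 0 fell, against 22.7% and 23.5% of all genes, with a median of 0.22. Without the 100 ng library 9 rose and 0 fell. The line medians were 0.195 in FL, 0.167 in ΔA and 0.169 in ΔB+C, and 0 members had a line interaction. *Sdf2l1*, an ER chaperone partner, stood at 13.1, 18.1 and 19.2 CPM in replicate 1 and 25.7, 26.3 and 30.9 CPM in replicate 2. All replicate 2 libraries were above all of replicate 1, and it rose by 0.70 ± 0.074 (edgeR adjusted p = 7.31e-05). *Xbp1*, the transcription factor of this response, stood at 36.2, 38.3 and 54.7 CPM in replicate 1 and 56.1, 62.3 and 70.9 CPM in replicate 2, again without overlap, and rose by 0.57 ± 0.065 (edgeR adjusted p = 0.000105). *Herpud1*, of ER-associated degradation, rose by 0.44 ± 0.05 (edgeR adjusted p = 0.000106) and the disulfide isomerase *Pdia4* by 0.30 ± 0.036 (edgeR adjusted p = 0.000137). *Hspa5* (BiP), the main ER chaperone, rose by 0.26 ± 0.043 (edgeR adjusted p = 0.000769), and *Creld2* by 0.23 ± 0.044 (edgeR adjusted p = 0.00141).

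Of 39 ATF4 targets and amino acid synthesis genes 18 rose (46.2%) and 3 fell (7.69%), against 22.7% and 23.5% of all genes, with a median of 0.118. Without the 100 ng library 15 rose and 3 fell. The line medians were 0.0136 in FL, 0.27 in ΔA and 0.285 in ΔB+C, so the median rise was in ΔA and ΔB+C. A line interaction was called for 7 of the 39, against 5.72% of all genes. *Chac1*, which degrades glutathione, stood at 9.08, 11.9 and 33.8 CPM in replicate 1 and 17.7, 25.5 and 51.6 CPM in replicate 2 and rose by 0.96 ± 0.097 (edgeR adjusted p = 7.95e-05) in 6 of 6 pairs. *Trib3*, a pseudokinase, rose by 0.83 ± 0.086 (edgeR adjusted p = 7.47e-05) and the stress protein *Nupr1* by 0.89 ± 0.17 (edgeR adjusted p = 0.00166). *Atf4* itself rose by 0.12, while *Asns* (asparagine synthetase), a standard target, had a difference of 0.0085 and was not called. *Asns* passed the test of the line interaction (adjusted p = 0.0158 in edgeR), so its joint value covers lines that differed. The heat shock list was even, with 2 higher and 2 lower of 11. The cytosolic chaperones *Hsph1* and *Hspa8* rose by 0.30 ± 0.04 (edgeR adjusted p = 0.000202) and 0.25 ± 0.04 (edgeR adjusted p = 0.000521), while the collagen chaperone *Serpinh1* differed by -0.51 ± 0.14 (edgeR adjusted p = 0.0233, 0.0788 without the ΔB+C DOX replicate 2 library).

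Of 21 p53 targets 2 rose (9.52%) and 16 fell (76.2%), against 22.7% and 23.5% of all genes, with a median of -0.427. The counts were 1 and 16 without the 100 ng library, and 1 and 18 after the GC and length correction. The line medians were -0.455 in FL, -0.336 in ΔA and -0.431 in ΔB+C. *Polk*, a translesion DNA polymerase, stood at 32.8, 39.7 and 54.1 CPM in replicate 1 and 20.2, 22.7 and 29.6 CPM in replicate 2. Its ranges did not overlap, and it changed by -0.77 ± 0.049 (edgeR adjusted p = 3.32e-06). *Plk2*, a kinase, changed by -0.76 ± 0.087 (edgeR adjusted p = 0.000256), *Ccng1* (cyclin G1) by -0.44 ± 0.052 (edgeR adjusted p = 0.000125) and the death receptor *Fas* by -0.85 ± 0.21 (edgeR adjusted p = 0.00705). *Cdkn1a* (p21) changed by -0.56 and *Mdm2*, the p53 ubiquitin ligase, by -0.43 on the log2 scale, each in 6 of 6 pairs. *Gdf15*, which is also a stress-induced cytokine, went the other way and rose by 0.93 ± 0.17 (edgeR adjusted p = 0.00129). Of 9 tested interferon and antigen presentation genes 0 rose and 3 fell. *B2m*, the light chain of MHC class I, changed by -0.69 ± 0.063 (edgeR adjusted p = 3.72e-05), the peptide transporter *Tap1* by -0.43 ± 0.076 (edgeR adjusted p = 0.000987) and *H2-K1* by -0.25 ± 0.053 (edgeR adjusted p = 0.00305).

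Cell cycle genes moved by small amounts. Of 18 S phase genes 9 rose (50%) and 3 fell (16.7%), against 22.7% and 23.5% of all genes, with a median of 0.106. *E2f1* rose by 0.43 ± 0.059 (edgeR adjusted p = 0.000245), and the replication licensing factors *Cdt1* and *Cdc6* by 0.36 ± 0.057 (edgeR adjusted p = 0.000604) and 0.31 ± 0.039 (edgeR adjusted p = 0.00017), while cyclin E2, *Ccne2*, changed by -0.39 ± 0.085 (edgeR adjusted p = 0.00328). Of 16 G2 and M phase genes 2 rose (12.5%) and 5 fell (31.2%), with a median of -0.0582. *Ccnb1* (cyclin B1) stood at 373, 385 and 391 CPM in replicate 1 and 306, 327 and 345 CPM in replicate 2, without overlap, and changed by -0.23 ± 0.038 (edgeR adjusted p = 0.000756). *Aurkb* and *Ube2c* rose by 0.24 ± 0.058 (edgeR adjusted p = 0.00545) and 0.21 ± 0.045 (edgeR adjusted p = 0.0029), and the kinetochore motor *Cenpe* changed by -0.26 ± 0.064 (edgeR adjusted p = 0.00736, 0.0554 after the GC and length correction).

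Replication-dependent histone mRNAs, which lack a poly(A) tail, were near the floor. Of 69 clustered genes 6 passed the filter and 0 were called in edgeR, with 0 also in the fit without the 100 ng library. Together they took 0.0032% of counts in replicate 1 and 0.0037% in replicate 2 (means of 6, SD 0.000593 and 0.000522), higher in 6 of 6 pairs (two-sided exact sign-flip test, p = 0.03125, the smallest that 6 pairs allow, and 0.0521 after adjustment over 5 classes). Of 9 replacement histone genes, which are polyadenylated, 1 rose and 3 fell. *H1f0*, a linker histone of non-dividing cells, changed by -0.39 ± 0.072 (edgeR adjusted p = 0.0015), *H3f3b* by -0.14 ± 0.035 (edgeR adjusted p = 0.00636, 0.104 after the GC and length correction) and *H3f3a* by -0.14 ± 0.038 (edgeR adjusted p = 0.014, 0.165 after the GC and length correction), while *H1fx* rose by 0.27 ± 0.049 (edgeR adjusted p = 0.00124, 0.239 after the GC and length correction).

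Ribosomal RNA took more of the counts in replicate 2. Its share was 0.345% ± 0.0759 in replicate 1 and 0.830% ± 0.376 in replicate 2 (SD, n = 6), higher in 6 of 6 pairs (exact sign-flip p = 0.03125, adjusted p = 0.0521). *Rn45s*, the 45S precursor of ribosomal RNA, stood at 2870, 3190 and 4920 CPM in replicate 1 and 5110, 6700 and 15700 CPM in replicate 2. All replicate 2 libraries were above all replicate 1 libraries, with ΔA DOX replicate 2 highest, and the difference was 1.20 ± 0.25 (edgeR adjusted p = 0.0109). *Lars2* stood at 174, 196 and 294 CPM in replicate 1 and 477, 593 and 1500 CPM in replicate 2, also without overlap and with the same library highest, and rose by 1.69 ± 0.28 (edgeR adjusted p = 0.00448). The annotated *Lars2* gene is known for reads that resemble ribosomal RNA, and whether its rise is of the mRNA was not tested. Carry-over of ribosomal RNA into a library and its level in the cells cannot be told apart.

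Ribosomal protein mRNAs did not follow. The 87 cytosolic genes took 9.99% of counts in replicate 1 and 9.85% in replicate 2, higher in 3 of 6 pairs (exact sign-flip p = 0.656). Of 84 tested 11 rose (13.1%) and 17 fell (20.2%), against 22.7% and 23.5% of all genes. Without FL noDOX or ΔB+C noDOX replicate 2 6 rose, where 2771 and 2488 of all 13191 genes did. Without ΔA DOX or ΔA noDOX replicate 2 9 to 10 fell, where 2686 and 2656 of all genes did. *Rpl39l*, a testis- and stem cell-enriched copy of *Rpl39*, rose by 1.44 ± 0.28 (edgeR adjusted p = 0.00536), with 2.01 in FL, 0.64 in ΔA and 2.08 in ΔB+C, and *Rpl39* changed by -0.64 ± 0.13 (edgeR adjusted p = 0.00639). *Rpl10l*, a retrocopy of *Rpl10*, rose by 0.83 ± 0.074 (edgeR adjusted p = 2.92e-05). Reads of such copies can be split between them, so these values are uncertain. Of 75 mitochondrial ribosomal protein genes 18 rose (24.0%) and 11 fell (14.7%), against 22.7% and 23.5% of all genes, with a median of -0.0041. Without ΔB+C noDOX replicate 2 10 rose and 15 fell, and without ΔA noDOX replicate 2 18 rose and 7 fell. Of all 13191 genes 2488 rose and 2644 fell in the first of these fits, and 2523 and 2656 in the other. *Mrpl54* stood at 27.9, 30.8 and 34.9 CPM in replicate 1 and 36, 42.8 and 45.9 CPM in replicate 2, without overlap, and rose by 0.40 ± 0.048 (edgeR adjusted p = 0.000134).

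Of 19 ribosome biogenesis genes 8 rose (42.1%) and 3 fell (15.8%), against 22.7% and 23.5% of all genes, with a median of 0.079. Without FL noDOX or FL DOX replicate 2 5 rose, where 2771 and 2660 of all 13191 genes did. *Fbl* (fibrillarin, chr7:28168893-28179269), the methyltransferase of box C/D particles, stood at 363, 428 and 450 CPM in replicate 1 and 586, 631 and 659 CPM in replicate 2. Its ranges did not overlap, and it rose by 0.59 ± 0.044 (edgeR adjusted p = 1.08e-05) in 6 of 6 pairs. *Rrp9* rose by 0.36 ± 0.055 (edgeR adjusted p = 0.000421), *Bop1* by 0.22 ± 0.045 (edgeR adjusted p = 0.00254, 0.0968 after the GC and length correction) and *Ubtf*, a factor of RNA polymerase I, by 0.21 ± 0.05 (edgeR adjusted p = 0.00566). Of 46 tested small structured RNAs, mostly snoRNAs, 0 rose and 18 fell (39.1%, against 23.5% of all genes), with a median of -0.287. After the GC and length correction the direction was lost: 4 rose and 5 fell, with a median of -0.024. Their median length was 126 bases, below the insert size of the libraries, against 3400 for all tested genes. They therefore lie at the short end of the length trend that the correction takes out. The source of their fall was not tested. *Snora81*, a guide of pseudouridylation, stood at 2.77, 3.33 and 4.24 CPM in replicate 1 and 1.3, 1.69 and 1.96 CPM in replicate 2 and changed by -1.01 ± 0.13 (edgeR adjusted p = 0.000202). *Snora41* changed by -0.93 ± 0.14 (edgeR adjusted p = 0.000444) and *Snord64* by -0.89 ± 0.12 (edgeR adjusted p = 0.000225).

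Of 8 tested DNA methylation enzymes 5 rose and 1 fell, with a median of 0.221, and the counts were the same without the 100 ng library. *Dnmt3l*, the cofactor of de novo methylation, stood at 170, 282 and 319 CPM in replicate 1 and 257, 418 and 563 CPM in replicate 2 and rose by 0.68 ± 0.054 (edgeR adjusted p = 1.64e-05). *Tet2*, an enzyme that oxidises methylcytosine, rose by 1.18 ± 0.21 (edgeR adjusted p = 0.00378), with 0.74 in FL, 1.97 in ΔA and 0.85 in ΔB+C, and *Tet3* changed by -0.24 ± 0.065 (edgeR adjusted p = 0.0103). Of 19 tested imprinted genes 3 rose and 7 fell. The neighbours *Peg10* and *Sgce* changed by -0.92 ± 0.22 (edgeR adjusted p = 0.0165, 0.0553 without the ΔB+C DOX replicate 2 library) and -0.85 ± 0.074 (edgeR adjusted p = 2.61e-05), and *Cdkn1c*, a cell cycle inhibitor, rose by 0.67 ± 0.056 (edgeR adjusted p = 2.01e-05).

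More X-linked genes fell than rose in replicate 2. Of 465 tested 43 rose (9.25%) and 194 fell (41.7%), against 22.7% and 23.5% of all genes, with a median of -0.166. Without the 100 ng library 41 rose and 161 fell. The GC and length correction gave 49 and 157, with a median of -0.0998, and the median GC of these genes was 45.8% against 50.1% of all tested. X-linked genes took 2.60% ± 0.452 of counts in replicate 1 and 2.36% ± 0.528 in replicate 2 (SD, n = 6), lower in 6 of 6 pairs (exact sign-flip p = 0.03125, adjusted p = 0.0521). The pair medians of X-linked genes were -0.0624 in FL noDOX, -0.22 in FL DOX, -0.137 and -0.135 in ΔA noDOX and DOX, -0.135 in ΔB+C noDOX and -0.314 in ΔB+C DOX. They were below 0 with and without DOX, and lower in the DOX than in the noDOX pair of FL and of ΔB+C, while those of ΔA were alike. By the study's microscopy counts for its DOX samples, the share of cells whose X was coated by *Xist* differed between the duplicates. As numbered there, it was higher in the second than in the first for FL and ΔA, and lower for ΔB+C. The part of *Xist* in the X-linked difference was not tested. *Xist* itself had a difference of -0.14 ± 0.14 (edgeR adjusted p = 0.427).

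The size of the difference between replicates depended on the line. The line interaction was called for 754 genes (5.72%), and 2793 had an unadjusted p under 0.05. DESeq2's likelihood ratio test called 582, of which 549 were also called in edgeR. On simulated data the edgeR test of this interaction made more false calls than its threshold states and missed most small changes, so calls near the threshold are uncertain. The largest difference in size was in FL for 322 of the 754, in ΔA for 289 and in ΔB+C for 143, and FL and ΔA had opposite signs in 389. *Kifc3*, a kinesin, had the smallest p (adjusted p = 1.03e-06 in edgeR), with -0.96 in FL, 1.39 in ΔA and -0.12 in ΔB+C. *Dmtn* (dematin), a cytoskeletal protein, had -0.35 in FL, 1.08 in ΔA and -0.055 in ΔB+C, and *Ahnak*, a large scaffold protein, -2.04 in FL, -0.54 in ΔA and -1.80 in ΔB+C. Without the 100 ng library the interaction was called for 1765 genes (13.4%), with 722 called in both fits. With a replicate term for each of the 3 lines in 1 joint fit of all 12 libraries, 3074 genes were called in FL, 4014 in ΔA and 5234 in ΔB+C.

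The difference between replicates was not shown to depend on DOX. In edgeR 0 genes (0.0%) passed the threshold for the DOX interaction, with 485 at an unadjusted p under 0.05 and 0.994 as the smallest adjusted p. DESeq2 also called 0, with 269 at an unadjusted p under 0.05. The 5 smallest p-values were those of *Cd80*, *Nt5e*, *Flt1*, *Cask* and *Dll1*, whose differences between replicates were apart by 1.16, -0.852, -0.674, -0.615 and 0.821 on the log2 scale between DOX and noDOX libraries. With 4 residual degrees of freedom this does not show that the treatments shifted alike.

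Leaving out the 100 ng library, and with it the ΔB+C DOX pair, gave 2536 genes higher (19.2%) and 2609 lower (19.8%). Of the calls 4973 were shared in the same direction, 1129 were made with all libraries alone and 172 without this library alone. The ΔB+C DOX pair had the largest median absolute log2 difference, 0.266, with 514 genes past 2-fold, and the highest correlation with GC content. Without it, 7 of the 9 naive genes that rose were still called, as were 9 of 10 of the unfolded protein response and 15 of 18 ATF4 targets. Of those that fell, 16 of 16 p53 targets, 12 of 13 immediate early genes, 5 of 8 mesendoderm genes, 4 of 7 fibroblast and matrix genes and 12 of 18 small structured RNAs were still called. *Inhbb* differed by 2.48, *Csf1* by -2.69 and *Gbx2* by 1.39 on the log2 scale in that fit, with adjusted p = 0.00372, 0.019 and 0.0129 in edgeR. Of the genes named here, those that lost their call were *Esrrb*, *T*, *Fgf8*, *Synpo2l*, *Acta2*, *Col5a1*, *Hoxb2*, *Notum*, *Bhlhe40*, *Serpinh1* and *Peg10*, with adjusted p from 0.0553 to 0.104.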

How the data were processed

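Per the labels and the study's methods, total RNA was sequenced as 150-base read pairs. Reads were mapped to mm10 with TopHat2 2.1.0, and pairs over exons of refFlat genes were counted with featureCounts 1.5.1 by the authors, who deposited raw counts per gene, 1 file per library. Strand use, removal of ribosomal RNA and PCR duplicates are not given in the sources used here.

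Libraries were grouped by their labels. Genes reaching 1 CPM in 6 or more libraries were tested with edgeR 4.0.16 (R 4.3.3): 1 mean per line and treatment group plus replicate number, TMM factors from tested autosomal genes, Benjamini-Hochberg threshold 0.05. Interactions of replicate number with DOX and with line were added as terms. Shares of counts were tested by two-sided exact sign-flip over 6 pairs, counted as independent. Same-numbered libraries deviated together: pair differences correlated at 0.388 to 0.768, so the numbers pair the samples. Members and gene lists were chosen with earlier results of these data known.

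Genes named are the 10 largest rises and falls (mean at least 5 CPM, same direction in 6 of 6 pairs), up to 4 called members per list, the smallest interaction p-values and fixed markers, of which some are not reported here. *Lefty1*, *Hspa5*, *Creld2*, *Ccng1*, *Cdkn1a*, *Mdm2*, *Atf4*, *Asns*, *Lum*, *Col3a1*, *Zscan4c*, *Zscan4d*, *Tmem92* and the other two-cell-like genes were named after their values were seen. Lists are described by counts and medians without a set test. Transcript GC and length were of the longest GENCODE vM21 transcript. Steps were tested on simulated data, where the line interaction test made more false calls than its threshold states. Alternatives were DESeq2 1.42.0, limma-voom 3.58.1, other scaling and filters, thinning, single treatments, leaving out libraries or lines, and the GC and length correction.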

Additional observations from a re-analysis of the deposited data

Results flagged for a closer look

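Results are listed here where the difference between replicates varied by line in edgeR's line interaction test, or where 1 of 6 values lay apart by Dixon's test (critical value 0.625). The line interaction was called for 754 genes, and by the check on simulated data its adjusted p-values may be too small. Among the largest changes its adjusted p was 0.000941 for *Inhbb*, 0.002 for *Mymx*, 0.00526 for *Cpne5*, 0.00856 for *Tcl1* and 0.0101 for *Krt42*, where ΔA or ΔB+C rose more than FL. Among the falls it was 3.77e-05 for *Csf1*, 0.0106 for *Prss23*, 1.93e-06 for *Thbs1*, 8.81e-05 for *Krt19*, 0.00425 for *Wnt4*, 0.018 for *Tgfb2*, 3.28e-05 for *Synpo2l*, 8.98e-05 for *Krt8*, 0.00109 for *Krt18* and 0.000157 for *S100a6*, each steepest in FL.

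Pluripotency genes with this interaction were *Gbx2* (0.00143), *Prdm14* (0.0194), *Nr0b1* (0.000546), *Esrrb* (8.76e-05), *Zfp42* (0.000237), *Klf4* (0.000912), *Klf5* (6.56e-06), *Sox2* (0.0287), *Junb* (0.000626), *Fgf5* (0.0094) and *Dnmt3b* (0.000859), with the adjusted p in brackets. Lineage and matrix genes were *Sox1* (0.0431), *Foxa2* (0.0224), *Cdx2* (0.0383), *Tagln* (5.81e-05), *Acta2* (6.12e-05) and *Col5a1* (9.51e-05). Signalling and metabolic genes were *Notum* (0.00327), *Dusp9* (0.00173), *Phlda1* (0.048), *Dusp4* (0.000946), *Cyr61* (0.0108), *Pfkfb3* (0.00701), *Bhlhe40* (2.2e-05), *Trib3* (0.0266), *Asns* (0.0158) and *Serpinh1* (0.000158). The others were *Rpl39l* (0.000854), *Tet2* (0.00082), *Peg10* (7.24e-06), *Cdkn1c* (0.0463), *Kifc3* (1.03e-06), *Ahnak* (3.54e-06) and *Dmtn* (6.56e-06).

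Of the groups of 6 values looked at, 206 in all, 6 had 1 value apart, and chance alone sets apart about 1 in 20. The gap of that value, as a share of the group's range, was 0.658 for *Sp5* (FL DOX, the steepest drop), 0.674 for *Egln3* (ΔB+C noDOX), 0.779 for *Cyp51* (FL DOX), 0.653 for *Pdia4* (ΔB+C noDOX) and 0.69 for *E2f1* (ΔB+C DOX, the pair with the 100 ng library) among pair differences. It was 0.679 for the share of ribosomal RNA in replicate 1, with FL DOX highest at 0.492%.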

How the results depend on the processing

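The counts of 2996 higher and 3106 lower genes came from a fit with the line and treatment pair as replicate block. In the fit with no replicate block they were 757 and 766, and 64 of the named genes lost their call, since differences between lines then count as error. Fits to part of the libraries also gave fewer calls: 1332 and 1542 from noDOX libraries, 1546 and 1723 from DOX libraries and 1957 and 2041 without the ΔB+C line. Summing noDOX and DOX gave 1970 higher and 2097 lower, with 2 residual degrees of freedom. Leaving out 1 replicate 2 library, which takes its pair out of the difference, gave 2488 to 2771 higher and 2609 to 2972 lower. DESeq2, limma-voom, TMM over all genes, library totals, no filter, a filter of 5 CPM and thinning stayed within 1.5 times the counts, as did the GC and length correction (2906 and 2940), chosen after seeing the data. It took small structured RNAs from 0 higher and 18 lower to 4 and 5, with the median going from -0.287 to -0.024.

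The line interaction went from 754 to 1765 genes without the 100 ng library, and the cause was not tested. The DOX interaction stayed at 0 in all 4 settings run. *Dmtn*, not called with all libraries (0.22), was called at -0.204 (adjusted p = 0.0451) without the ΔA line. The share of cytosolic ribosomal proteins differed by -0.135 percentage points over 6 pairs and by 0.224 in noDOX pairs alone. Depth limits genes below 1 CPM, such as the two-cell-like genes, which were not tested. The 6 pairs cannot give a sign-flip p under 0.03125, nor 5 pairs one under 0.0625. Both the edgeR and the sign-flip tests count the pairs of a line as independent. Their differences correlated at 0.719 to 0.768 within a line, so the p-values may be too small.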
